A study of Mus musculus with 28 samples.

Results

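The 37 genes of the mouse mitochondrial genome were followed in bulk RNA-seq counts of the tibialis anterior (TA), a fast muscle of the lower leg, from 28 mice. They were all genes whose symbol starts with mt- and which lie on chromosome M: 13 protein-coding genes, 2 ribosomal RNA (rRNA) genes and 22 transfer RNA (tRNA) genes, among 55359 gene identifiers in the table of the Bin1 cohort and 55416 in that of the Dnm2 cohort. The study asked which genes respond to tamoxifen, a modulator of the estrogen receptor, in models of centronuclear myopathy, a congenital muscle disease with centrally placed nuclei. The Dnm2 cohort held WT mice and Dnm2 S619L/+ mice, which carry a heterozygous missense knock-in in dynamin 2, a membrane-cutting GTPase, each on placebo or tamoxifen diet. The Bin1 cohort held WT mice on placebo diet and Bin1 mck-/- mice, in which the muscle creatine kinase (mck) promoter restricts the loss of the membrane-curving protein Bin1 to muscle, on placebo or tamoxifen diet. It had no tamoxifen-treated WT group, so a tamoxifen effect cannot be told apart there from one that needs the deletion. Each of the 7 groups had 4 mice, all 8 weeks old and on a C57BL/6N background. Placebo-fed mice are called untreated below.

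Both strands of the circular mitochondrial genome are transcribed into long precursors, which are cut mostly at the tRNAs that lie between the other genes. The heavy-strand precursor gives both rRNAs, most tRNAs and all protein genes but mt-Nd6, and the light-strand precursor gives mt-Nd6 and the remaining tRNAs. The proteins are subunits of respiratory complexes I (mt-Nd genes), III (mt-Cytb) and IV (mt-Co genes) and of the ATP synthase (mt-Atp genes), all of which also need subunits encoded in the nucleus, and the mRNAs are a large share of the poly(A) RNA of muscle.

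Gene counts per mouse ran from 24671835 to 35136327 in the Bin1 cohort and from 15586333 to 109710886 in the Dnm2 cohort, of which 2323962 to 3502810 and 3005718 to 21448598 were counted on mitochondrial genes. All 12 muscle fiber markers had reads in each group, with summed levels of 99033 to 211437 CPM per mouse. CPM are counts in 1000000 gene counts, with library sizes scaled by TMM (a trimmed mean of log ratios between libraries) unless they are called unscaled, and shares in percent are of unscaled counts. Bin1 itself was at 539.9 ± 15.7 CPM (SD, n = 4) in WT and at 56.2 ± 5.10 in Bin1 mck-/- mice of the Bin1 cohort (edgeR adjusted p = 7.10e-10), whereas the Dnm2 knock-in cannot be seen in counts, with Dnm2 at 63.1 ± 1.45 CPM in WT and 67.6 ± 4.64 in Dnm2 S619L/+ mice (edgeR adjusted p = 0.344).

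Of the 37 genes, 25 had at least 1 read in the Bin1 cohort and 29 in the Dnm2 cohort, and 13 and 14 had 10 or more reads in every mouse. The reads sat in 6 heavy-strand mRNAs (mt-Nd1, mt-Nd2, mt-Nd4 and mt-Nd5 of complex I, mt-Cytb of complex III, mt-Co1 of complex IV), in mt-Nd6 and in the rRNAs mt-Rnr1 (12S) and mt-Rnr2 (16S), all of which had at least 904 reads in each mouse. In each cohort 8 of the 22 tRNA genes were at 0 in every mouse, which over a whole cohort allows up to 0.00810 unscaled CPM (Bin1 cohort) or 0.00535 (Dnm2 cohort), counting error only. The other 6 protein genes were nearly empty although they encode core subunits: mt-Co2 and mt-Co3 (complex IV), mt-Atp6 and mt-Atp8 (ATP synthase), mt-Nd3 and mt-Nd4l (complex I). They lie in 1 run of 11 consecutive genes, from mt-Ts1 to mt-Nd4l, with 5 tRNA genes between them. Within that run 9 of the 11 genes were at 0 in the Bin1 cohort and 5 in the Dnm2 cohort, and no gene of it exceeded 4 reads in a Bin1 cohort mouse or 85 in a Dnm2 cohort mouse. edgeR's filter on low counts kept 16 members in the Bin1 cohort and 19 in the Dnm2 cohort. Of these, 13 and 14 reached its minimum in every mouse, and the others (mt-Tq, mt-Tt and mt-Tp, and in the Dnm2 cohort mt-Tq, mt-Tn, mt-Te, mt-Tt and mt-Atp6) passed on some of the mice only, so counts are also given below for the former.

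The protein genes of this run, but for most of mt-Atp8, match pseudogenes annotated in the nuclear genome. No base of its 5 tRNA genes (mt-Ts1, mt-Td, mt-Tk, mt-Tg and mt-Tr) lies in a match found here. Only annotated transcripts were searched, so copies outside them would not be found. Mitochondrial DNA copied into nuclear chromosomes can be annotated there as pseudogenes. A comparison of GENCODE M21 transcripts found 7 such copies with at least 99% identity, which together match 8 of the 13 protein genes. Copies covered over 95% of 5 of the 6 empty genes: all but the last 3 bases of mt-Co2 (684 bases), mt-Atp6 (681), mt-Nd3 (348) and mt-Nd4l (297), and all but 1 base of mt-Co3 (784). The sixth, mt-Atp8 (204 bases), was matched over its last 43 bases only, so that the annotated copies do not cover its other 161 bases. The remaining matches were to the first 876 of the 1378 bases of mt-Nd4 and to bases 1063 to 1545 of mt-Co1. In the Bin1 cohort, 5848065 to 7890944 reads per mouse stood in the line for reads that align to several places, and these belong to no gene. How reads with several alignments were treated in the Dnm2 cohort is not given in the sources used here, and the part of such reads in the empty run was not tested.

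The next sequences show how little separates gene and copy, and where the match ends. In mt-Nd3 and its nuclear copy Gm28438 the only difference in 345 aligned bases is T3C (positions from 1 at the first base of the gene), in capitals in the first 33 bases of each.
mt-Nd3: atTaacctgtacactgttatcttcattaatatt
Gm28438: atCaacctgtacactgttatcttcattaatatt
In mt-Nd4 the match stops after base 876, and in mt-Co1 it starts at base 1063. Bases 847 to 906 of mt-Nd4 and 1033 to 1092 of mt-Co1 are shown, with the bases outside the copy in capitals.
mt-Nd4: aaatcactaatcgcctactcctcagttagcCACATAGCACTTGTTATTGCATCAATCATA
mt-Co1: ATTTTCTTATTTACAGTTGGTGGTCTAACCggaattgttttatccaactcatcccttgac
The end of mt-Atp8 overlaps the start of mt-Atp6 on the same strand by 43 bases, in capitals in bases 152 to 204 of mt-Atp8, so reads from there cannot be told apart.
mt-Atp8: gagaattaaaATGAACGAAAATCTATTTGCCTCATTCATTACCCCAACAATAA

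The copies themselves took few reads. Of the 7, only Gm28437 (matching mt-Co3), Gm10925 (mt-Atp6) and Gm28438 (mt-Nd3) averaged over 1 unscaled CPM, and only in the Dnm2 cohort, at 52.1, 7.70 and 1.79. The mean of Gm28437 came from 3 mice, with 47293 reads in untreated WT mouse 1, 9990 in untreated WT mouse 4 and 8559 in Dnm2 S619L/+ mouse 1, against 0 to 6 reads in the other Dnm2 cohort mice.

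Levels per length followed the same order among the 6 heavy-strand mRNAs in both WT groups. In untreated WT mice of the Dnm2 cohort mt-Cytb stood at 60596 CPM per kb, mt-Nd1 at 49673, mt-Co1 at 34795, mt-Nd2 at 33543, mt-Nd4 at 19087 and mt-Nd5 at 16642 (means, n = 4). The corresponding levels in WT mice of the Bin1 cohort were 23172, 14096, 13013, 10374, 7561 and 4511 CPM per kb. The libraries were selected for poly(A) RNA, and the rRNAs came far below these mRNAs, with mt-Rnr2 at 2642 and mt-Rnr1 at 2177 CPM per kb in the Dnm2 cohort. The 6 mRNAs kept this order of mean levels in all 7 groups. Neighbours in the order were not always apart: mt-Co1 and mt-Nd2 in untreated WT mice of the Dnm2 cohort differed by less than the SD of either (34795 ± 5228 and 33543 ± 6292 CPM per kb). The order also depends on length. Spread over only the 502 bases of mt-Nd4 that lie outside the copy, its median level over the 16 Dnm2 cohort mice would be 34065 and not 12410 unscaled CPM per kb, above that of mt-Nd1 (30644), and for mt-Co1 the figures would be 31238 and 21472 unscaled CPM per kb. These medians cannot be set against the TMM-scaled means given before.

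**Figure D1:**
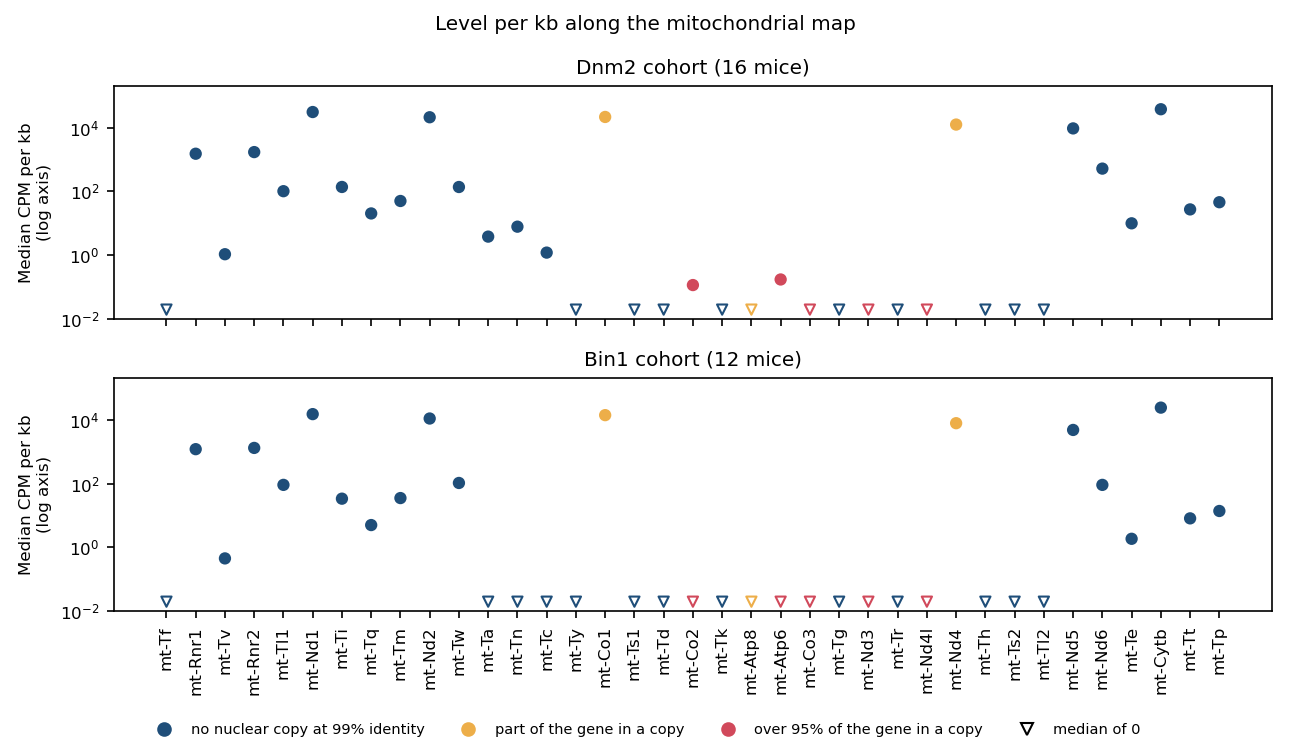
Median level of each mitochondrial gene in unscaled CPM per kb of gene (log axis) for the Bin1 cohort (12 mice) and the Dnm2 cohort (16 mice), genes in genome order, with a triangle at the lower edge for a median of 0. Red marks genes that annotated nuclear copies cover over 95% and orange those covered in part. The run from mt-Ts1 to mt-Nd4l lies at or near 0 in both cohorts, between mt-Co1 and mt-Nd4.

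Among tRNA genes, mt-Tw (tRNA-Trp), mt-Tl1 (tRNA-Leu), mt-Ti (tRNA-Ile) and mt-Tm (tRNA-Met) had the highest levels, with medians of 8.32, 7.63, 5.74 and 2.80 unscaled CPM over the 28 mice. All 4 are read from the heavy strand, as are 14 of the 22 tRNA genes. They are given in full, since at 67 to 75 bases they are so short that a read counted on them can extend into the neighbouring gene of an uncut precursor. mt-Tq (tRNA-Gln) and mt-Tp (tRNA-Pro), from the light strand, are added because they had the lowest fold changes of the tested tRNA genes in the comparison of treated Dnm2 S619L/+ with untreated WT mice.
mt-Tw: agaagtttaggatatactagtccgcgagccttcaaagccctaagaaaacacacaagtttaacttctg
mt-Tl1: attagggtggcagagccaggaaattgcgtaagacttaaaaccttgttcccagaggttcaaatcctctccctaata
mt-Ti: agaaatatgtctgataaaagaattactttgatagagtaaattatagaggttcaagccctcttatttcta
mt-Tm: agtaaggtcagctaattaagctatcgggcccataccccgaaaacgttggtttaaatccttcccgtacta
mt-Tq: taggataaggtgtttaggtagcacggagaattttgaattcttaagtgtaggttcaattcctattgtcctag
mt-Tp: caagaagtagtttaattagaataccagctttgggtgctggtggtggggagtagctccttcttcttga
All sequences come from GENCODE M21 and are written 5′ to 3′ as DNA. tRNA genes together took 0.0145% to 0.0308% of mitochondrial counts, so their values rest on 430 to 5653 reads per mouse.

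The share of all gene counts taken by mitochondrial genes was highest in untreated WT mice of the Dnm2 cohort. In both cohorts the nearly empty run from mt-Ts1 to mt-Nd4l adds almost no counts to this share. By mouse it was 19.6, 23.6, 25.7 and 22.9% in untreated WT (mice 1 to 4), 19.0, 17.7, 17.6 and 16.5% in treated WT, 13.6, 14.0, 17.1 and 14.9% in untreated Dnm2 S619L/+ and 14.8, 16.5, 14.7 and 15.0% in treated Dnm2 S619L/+ mice. Every untreated WT mouse lay above every mouse of the other 3 groups. The group means were 22.9% ± 2.56 (SD, n = 4 in each group), 17.7% ± 0.9996, 14.9% ± 1.56 and 15.2% ± 0.858. Relative to untreated WT the share differed by -8.06 percentage points in untreated Dnm2 S619L/+ mice, by -5.23 points in treated WT mice and by -7.71 points in treated Dnm2 S619L/+ mice, and none of these 3 pairs of groups overlapped. Treated and untreated Dnm2 S619L/+ mice differed by 0.348 points and overlapped. The first 3 differences use the same 4 untreated WT mice, and in bulk muscle a lower share can come from fewer cells of a type or from less RNA per cell, which cannot be told apart. Depth differed within untreated WT mice: the deepest library (109710886 counts) had the lowest share of the group, 19.6%, and the shallowest (15586333) the highest, 25.7%, and its part was not tested.

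In the Bin1 cohort the share was lower in all groups and the groups overlapped. It was 9.51, 9.60, 7.86 and 9.44% in WT mice 5 to 8, 9.29, 10.7, 11.6 and 10.2% in untreated Bin1 mck-/- and 9.78, 10.2, 8.20 and 10.3% in treated Bin1 mck-/- mice. The means were 9.10% ± 0.827, 10.4% ± 0.974 and 9.62% ± 0.974, so that untreated Bin1 mck-/- mice were 1.34 points above WT and treated ones 0.521 points above WT. With each mouse left out in turn these gaps ran from 0.931 to 1.73 and from 0.109 to 0.994 points, lowest in both without WT mouse 7 and highest without untreated mouse 1 and treated mouse 3. The cohorts were also made with unlike protocols, with 350 ng of RNA and 8 min of fragmentation for the Bin1 cohort and 300 ng and 2 min for the Dnm2 cohort, and were counted in separate tables. Protocol and other differences between the cohorts cannot be told apart in the gap between their WT groups, which was not tested.

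**Figure D2:**
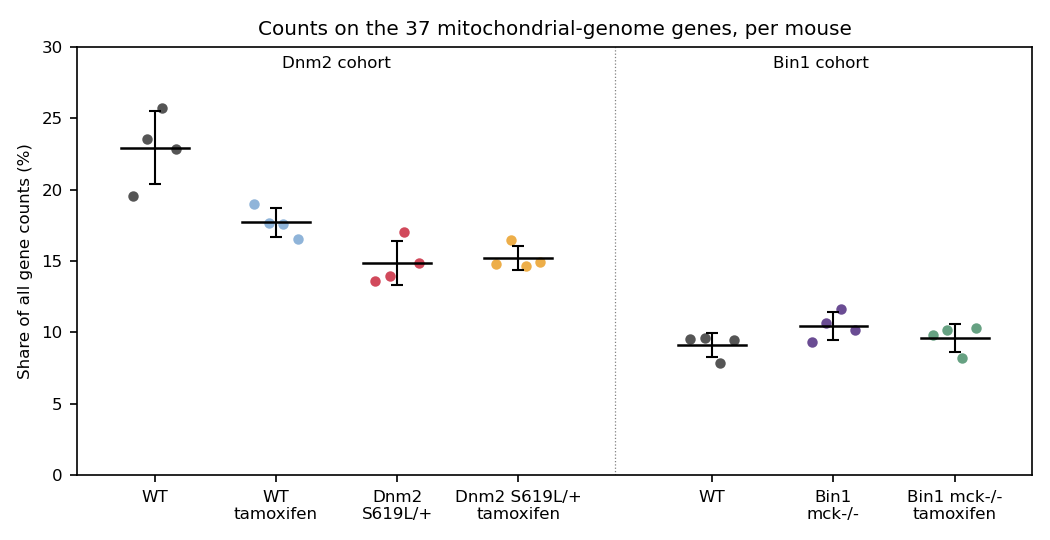
Percent of all gene counts taken by the 37 mitochondrial genes in each mouse, by group, with lines for the group mean and SD (n = 4). Untreated WT mice of the Dnm2 cohort (19.6% to 25.7%) lie above the other Dnm2 cohort mice (13.6% to 19.0%), while the groups of the Bin1 cohort overlap between 7.86% and 11.6%.

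Untreated Dnm2 S619L/+ mice had lower levels of all 6 heavy-strand mRNAs than untreated WT mice, with no overlap for any of them. mt-Cytb, the cytochrome b of complex III and the most abundant member, was at 60382, 72449.9, 79509 and 64947 CPM in WT and at 31734, 39748, 42834 and 35017 CPM in Dnm2 S619L/+ mice. The lowest WT mouse lay well above the highest Dnm2 S619L/+ mouse (log2 difference -0.89, SE 0.12, adjusted p by edgeR = 0.000197). mt-Nd5, a proton-pumping subunit of complex I, was at 20654, 33540.4, 37179 and 30046 CPM in WT and 12455, 11458, 14984 and 10936 CPM in Dnm2 S619L/+ mice and had the lowest fold change of the 6 (log2 difference -1.28, SE 0.18, adjusted p by edgeR = 0.000177). mt-Co1, the catalytic subunit of complex IV, was at 43282, 55612, 62832 and 53306 CPM in WT and 26849, 23747, 35604 and 26959.5 CPM in Dnm2 S619L/+ mice. The groups were again apart (log2 difference -0.93, SE 0.15, adjusted p by edgeR = 0.000519). In untreated WT and Dnm2 S619L/+ mice, mt-Nd1 ran from 38417 to 59102 and from 22581 to 32339.6 CPM, mt-Nd2 from 26355 to 41892 and from 16269 to 23048 CPM, and mt-Nd4 from 22219 to 29764 and from 13540.1 to 18409.6 CPM. These complex I subunits of the membrane arm also fell, with log2 fold changes of -0.79 for mt-Nd1, -0.89 for mt-Nd2 and -0.70 for mt-Nd4 (SE 0.15, 0.15 and 0.12, edgeR adjusted p = 0.00162, 0.000738 and 0.00112). All 6 calls held in each alternative fit and without any single mouse.

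Across the whole set, 12 of the 19 members tested in the Dnm2 cohort fell in untreated Dnm2 S619L/+ against untreated WT mice and none rose, where 9.81% of all 15439 genes tested fell and 12.1% rose. Of the 14 members at the filter's minimum in every mouse, 10 fell. The median log2 fold change was -0.89 over the tested members and 0.02 over all genes. Without TMM scaling the median of all genes moved to 0.28, and the 6 mRNAs lay 0.90 below it in place of 0.92 with TMM. Left out one at a time, WT mouse 2 or Dnm2 S619L/+ mouse 2 took the count of members that fell from 12 to 8.

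mt-Nd5 took a smaller part of the heavy-strand mRNAs in Dnm2 S619L/+ mice. It made up 11.5% ± 1.13 (SD, n = 4) of the counts of the 6 mRNAs in untreated WT, 11.8% ± 1.53 in treated WT, 8.89% ± 0.872 in untreated Dnm2 S619L/+ and 9.71% ± 0.511 in treated Dnm2 S619L/+ mice. mt-Cytb was at 26.6% ± 1.34, 26.6% ± 1.47, 26.6% ± 1.26 and 26.7% ± 0.996 in the same groups. These are shares of 1 sum, given as a description without a test.

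The rRNAs were lower as well, one of them past the test. mt-Rnr2 was at 3117, 4565, 4099.7 and 4935 CPM in untreated WT and at 2529, 2293, 2863 and 1841 CPM in untreated Dnm2 S619L/+ mice, with no overlap (log2 difference -0.81, SE 0.18, adjusted p by edgeR = 0.00466). mt-Rnr1 did not overlap either but missed the threshold (log2 difference -0.58, SE 0.21, adjusted p by edgeR = 0.0574), while DESeq2 gave an adjusted p of 0.0318. Both rRNAs are counted from what poly(A) selection retained.

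mt-Nd6, the complex I subunit encoded on the light strand, varied far more between mice than the heavy-strand mRNAs. It was at 1323, 3399, 832 and 318 CPM in untreated WT and 795, 180.4, 195 and 152 CPM in untreated Dnm2 S619L/+ mice. Dnm2 S619L/+ mouse 1 stood within the WT range and the groups overlapped (log2 difference -2.15, SE 0.73, adjusted p by edgeR = 0.0477). The call held in only 9 of 24 alternative fits: the adjusted p was 0.102 with only the 2 groups in the fit, 0.151 with no filter on low counts and 0.219 without WT mouse 2, where the log2 fold change was -1.30. mt-Nd6 and mt-Nd5 overlap by 14 bases on opposite strands, and whether strand was used in counting is not given in the sources used here.

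Of the tRNA genes, 4 of the 9 tested fell in untreated Dnm2 S619L/+ mice, where 9.81% of all genes fell. mt-Tw was at 15.7, 24.4, 18.4 and 19.6 CPM in untreated WT and 7.01, 9.02, 11.4 and 6.37 CPM in Dnm2 S619L/+ mice (log2 difference -1.21, SE 0.24, adjusted p by edgeR = 0.00301). mt-Tm followed with a log2 fold change of -0.83 (edgeR adjusted p = 0.0187). The light-strand genes mt-Tn (tRNA-Asn) and mt-Te (tRNA-Glu), at means under 2 CPM in both groups, were at -1.59 and -1.89 (edgeR adjusted p = 0.0395 and 0.0259). Both reached the filter's minimum in 4 of 4 untreated WT mice, but in only 3 and 2 of 4 Dnm2 S619L/+ mice. Their values are therefore given as a description. The mt-Tw call held in all alternatives, but mt-Tm missed the threshold without WT mouse 2 or Dnm2 S619L/+ mouse 2, mt-Tn without any of 6 mice and mt-Te without any of 4, with adjusted p of up to 0.0890, 0.101 and 0.101. With library sizes as counted mt-Tm (log2 difference -0.54, edgeR adjusted p = 0.0989) and mt-Tn also missed it, and so did mt-Tn with no filter on low counts. mt-Tl1, in contrast, was at 4.39, 7.56, 5.38 and 13.4 CPM in WT and 7.78, 7.20, 12.4 and 6.53 CPM in Dnm2 S619L/+ mice and did not pass (log2 difference 0.13, SE 0.41, adjusted p by edgeR = 0.854).

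Markers of other cell types and fiber types also differed between these groups. In Dnm2 S619L/+ mice 6 of 8 slow fiber markers (1 fell), 6 of 8 denervation and regeneration markers, 5 of 8 leukocyte markers and 3 of 6 tendon markers rose, and 4 of 5 endothelial markers fell. The summed denervation markers ran from 77.1 to 78.0 CPM in untreated WT and from 166 to 328 CPM in untreated Dnm2 S619L/+ mice, the leukocyte markers from 46.3 to 76.8 and 71.0 to 336 CPM, and the endothelial markers from 333 to 666 and 146 to 428 CPM. The 12 muscle fiber markers summed to 145586 to 177129 and 117885 to 166093 CPM, with 1 higher and 2 lower. The part of these shifts in the lower mitochondrial levels was not tested.

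**Figure D3:**
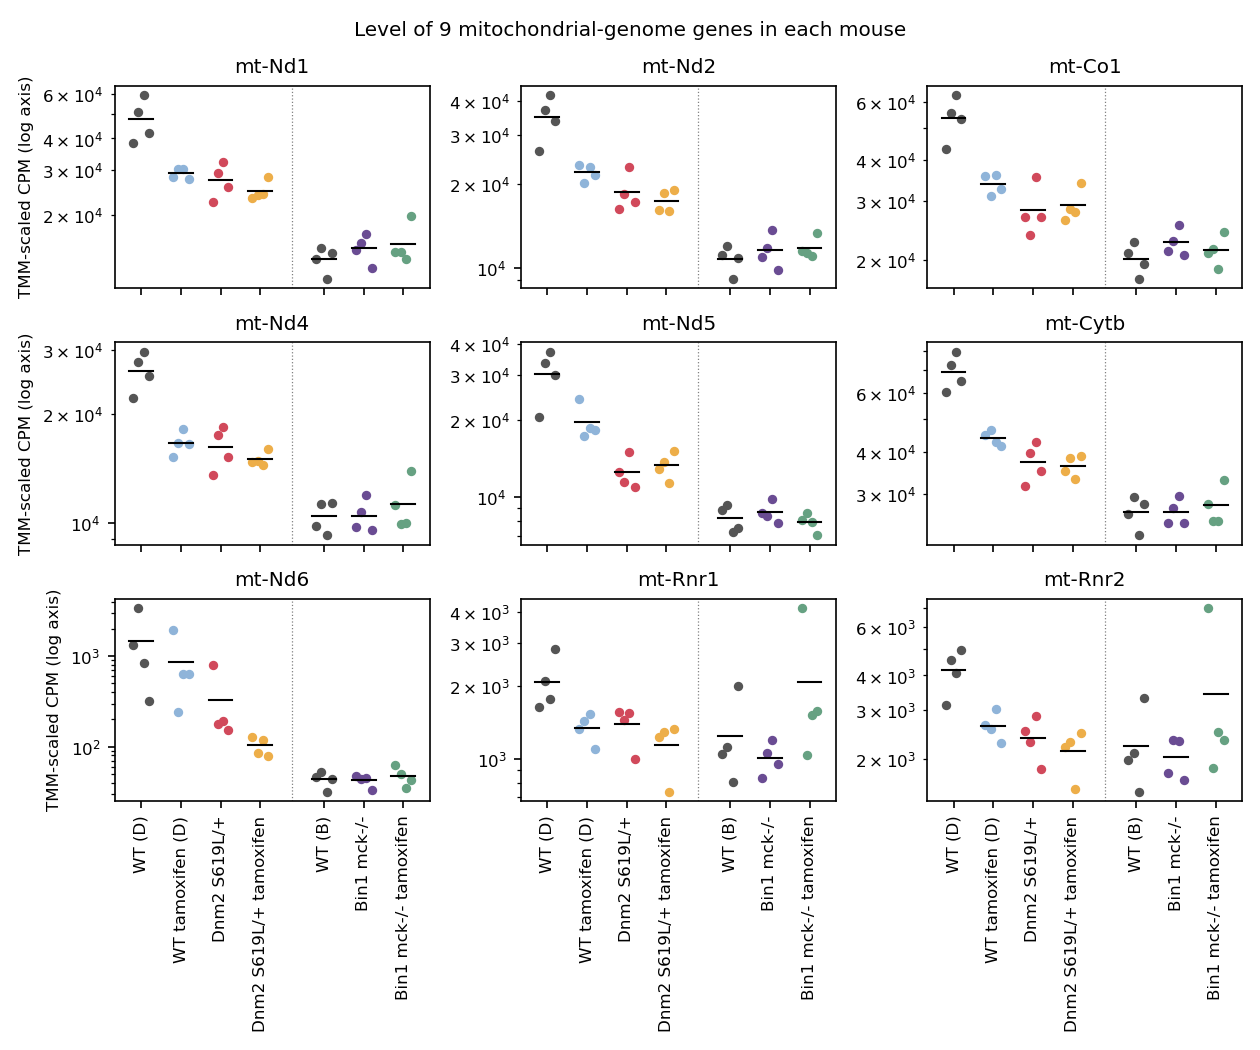
Level in TMM-scaled CPM (log axis) of the 9 abundant members in each of the 28 mice, grouped by cohort (D for the Dnm2 cohort, B for the Bin1 cohort), genotype and diet, with a line at the group mean. The heavy-strand mRNAs of untreated Dnm2 cohort WT mice lie above those of untreated Dnm2 S619L/+ mice, mt-Nd6 spreads most between mice, and 1 treated Bin1 mck-/- mouse stands above its group for both rRNAs.

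Tamoxifen-treated WT mice also had lower mitochondrial mRNA levels than untreated WT mice. mt-Cytb was at 44919.9, 46534, 42720 and 41555 CPM in treated WT mice, below each untreated WT mouse given above (log2 difference -0.66, SE 0.12, adjusted p by edgeR = 0.00144). mt-Co1 was at 35665, 31089, 36014 and 32648 CPM (log2 difference -0.67, SE 0.15, adjusted p by edgeR = 0.00363). The log2 fold changes of the 6 heavy-strand mRNAs lay close together, from -0.70 to -0.63, with no set-apart value for mt-Nd5 (-0.63, SE 0.17). For mt-Nd5 the groups overlapped, at 24117, 17310, 18646 and 18292 CPM in treated WT mice, and the call was lost without WT mouse 2 or WT mouse 3 (edgeR adjusted p of up to 0.0601) and with library sizes as counted (log2 difference -0.33, edgeR adjusted p = 0.0987).

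In all, 10 of the 19 members tested fell in treated against untreated WT mice and none rose, where 11.9% of all genes fell and 15.8% rose. All 10 were among the 14 members at the filter's minimum in every mouse. The median log2 fold change was -0.67 over the tested members and -0.04 over all genes, and without TMM the median of all genes moved to 0.24 while the 6 mRNAs stayed 0.61 below it. Besides the mRNAs these were mt-Tw (-1.22), mt-Tm (-0.98), mt-Rnr2 (-0.67) and mt-Rnr1 (-0.62, edgeR adjusted p = 0.0361). The mt-Rnr1 call was lost in 8 of 24 alternative fits, with an adjusted p of up to 0.211 (TMM off), and without WT mouse 2 or 4 or treated WT mouse 1, 2 or 4. With library sizes as counted mt-Rnr2 missed the threshold (edgeR adjusted p = 0.0739). mt-Nd6 did not pass, at 1969, 241, 631 and 641 CPM in treated WT mice (log2 difference -0.75, SE 0.71, adjusted p by edgeR = 0.452).

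Bone markers moved with tamoxifen in the Dnm2 cohort. The 11 osteoblast and bone matrix markers summed to 158 to 481 CPM in untreated WT and 5013 to 11232 CPM in treated WT mice, with 10 of 11 higher, and 5 of 6 tendon and 6 of 8 leukocyte markers also rose. The 12 muscle fiber markers summed to 113183 to 128568 CPM in treated WT mice, below all untreated ones (145586 to 177129), and the 8 fast fiber markers to 65767 to 73326 against 77913 to 106689 CPM. Of these lists 1 muscle fiber and 1 fast fiber marker fell past the test. In treated Dnm2 S619L/+ mice the bone markers summed to 3701, 6689, 8816 and 558 CPM against 431 to 586 CPM in untreated ones. Mouse 4 lacked the rise in bone markers. Its mitochondrial share of 15.0% is the value of 1 mouse, and a link between this share and bone RNA was not tested. In treated WT mice the part of bone RNA and of the lower muscle fiber sum in the lower mitochondrial levels was not tested.

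Within Dnm2 S619L/+ mice, no member passed the test between treated and untreated mice. mt-Cytb was at 35129, 38409, 33096 and 38939 CPM in treated Dnm2 S619L/+ mice, all within the range of the untreated ones (log2 difference -0.04, SE 0.12, adjusted p by edgeR = 0.888). The other 5 heavy-strand mRNAs had log2 fold changes of -0.14 to 0.09. None of the 19 members passed in edgeR, 4 had an unadjusted p under 0.05 and DESeq2 called 1 (mt-Tq, which edgeR also called without untreated WT mouse 4), where 8.27% of all genes passed. mt-Nd6 was at 128, 86.2, 119 and 79.6 CPM in treated Dnm2 S619L/+ mice, below all 4 untreated ones (log2 difference -1.68, SE 0.72, adjusted p by edgeR = 0.159).

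Whether tamoxifen acted differently in the 2 genotypes was tested as an interaction. The 6 heavy-strand mRNAs had interaction values of 0.55 to 0.72 on the log2 scale, meaning a less negative tamoxifen difference in Dnm2 S619L/+ than in WT mice. No member passed in edgeR, with 8 of 19 at an unadjusted p under 0.05, where 0.259% of all genes passed. DESeq2 called 3, mt-Nd4 (0.57), mt-Cytb (0.64) and mt-Co1 (0.73), and edgeR without Dnm2 S619L/+ mouse 3 called mt-Co1 only.

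Treated Dnm2 S619L/+ mice remained below untreated WT mice. Of the 19 members tested, 16 fell and none rose, where 13.1% of all genes fell and 15.8% rose. Of the 14 at the filter's minimum in every mouse, 13 fell, and leaving out any mouse gave 15 or 16 calls. The median log2 fold change was -0.996 over the members and 0.01 over all genes (0.35 without TMM, with the 6 mRNAs 0.92 below it). On the log2 scale mt-Cytb was at -0.93 ± 0.12 (SE) and mt-Nd5 at -1.20 ± 0.18 relative to untreated WT (edgeR adjusted p = 0.000220 and 0.000326). Of the members on the light strand, mt-Nd6 was at -3.83 (SE 0.79, edgeR adjusted p = 0.00283) and mt-Tp at -2.74 (edgeR adjusted p = 0.00462), and both reached the filter's minimum in every mouse of both groups. mt-Tq stood at -4.30, a value given as a description: it reached that minimum in 4 of 4 untreated WT and 0 of 4 treated Dnm2 S619L/+ mice, so it passed the filter on mice of other groups. mt-Tq was at 5.01, 9.17, 5.53 and 0.536 CPM in untreated WT and 0.215, 0.120, 0.281 and 0.185 CPM in treated Dnm2 S619L/+ mice, where single mice rest on as few as 3 reads. With library sizes as counted mt-Rnr1 and mt-Ti missed the threshold (edgeR adjusted p = 0.0513 and 0.0573), and so did mt-Te without untreated WT mouse 2 or treated Dnm2 S619L/+ mouse 2 or 3 (edgeR adjusted p of up to 0.0822).

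Markers differed in this comparison too. In treated Dnm2 S619L/+ against untreated WT mice 7 of 12 muscle fiber and 7 of 8 fast fiber markers fell, and 10 of 11 bone, 4 of 6 tendon, 5 of 8 leukocyte, 7 of 8 denervation and regeneration and 3 of 8 slow fiber markers rose. The muscle fiber markers summed to 99033 to 161283 CPM in treated Dnm2 S619L/+ against 145586 to 177129 CPM in untreated WT mice, and the fast fiber markers to 41134 to 73080.3 against 77913 to 106689 CPM. The part of these shifts in the lower mitochondrial levels was not tested.

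**Figure D4:**
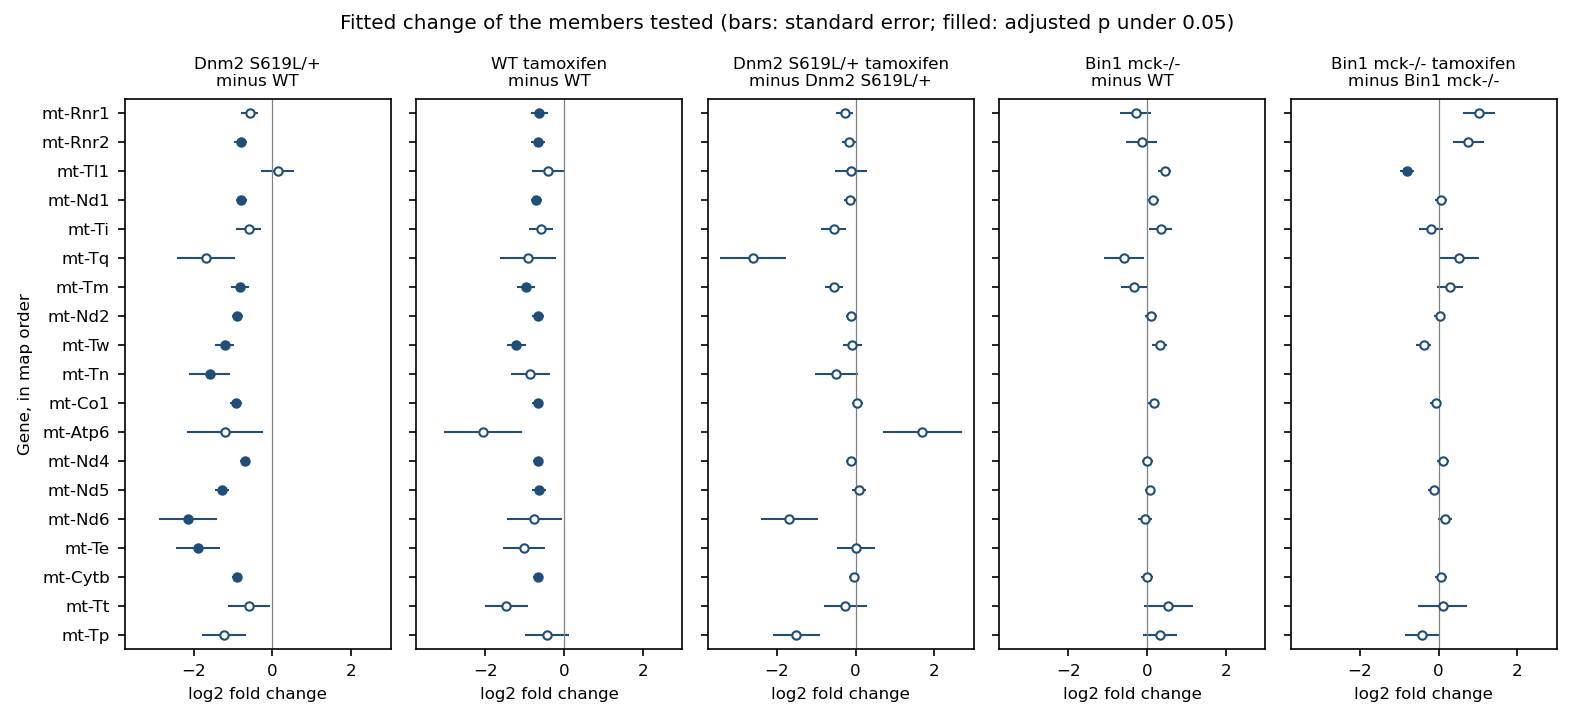
Log2 fold change with its SE (bars) of each tested member in 5 comparisons. Those of the Dnm2 cohort are untreated Dnm2 S619L/+ against untreated WT, treated against untreated WT, and treated against untreated Dnm2 S619L/+. Those of the Bin1 cohort are untreated Bin1 mck-/- against WT and treated against untreated Bin1 mck-/-. Filled points have an edgeR adjusted p under 0.05. These are 12 and 10 members against untreated Dnm2 cohort WT mice, all below 0. In treated against untreated Bin1 mck-/- mice 1 member is filled, mt-Tl1, also below 0, and none in the other 2 comparisons.

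Light-strand RNA varied widely between mice of the Dnm2 cohort, treated or not. Per 1000 heavy-strand mRNA counts there were 6.26, 12.3, 2.68 and 1.27 mt-Nd6 counts in untreated WT, 11.5, 1.49, 3.74 and 4.04 in treated WT, 6.44, 1.29, 1.16 and 1.16 in untreated Dnm2 S619L/+ and 0.992, 0.624, 0.940 and 0.526 in treated Dnm2 S619L/+ mice. All treated Dnm2 S619L/+ mice lay below all other mice of the cohort. Among tRNA counts, the light-strand share was 31.5, 30.6, 25.8 and 8.90% in untreated WT, 39.5, 14.7, 21.5 and 26.7% in treated WT, 25.8, 18.5, 11.6 and 7.11% in untreated and 13.3, 5.60, 8.13 and 5.79% in treated Dnm2 S619L/+ mice, so WT mouse 4 was low for both measures and Dnm2 S619L/+ mouse 1 high for both within its group. In the Bin1 cohort mt-Nd6 stood at 0.383 to 0.665 per 1000 and the light-strand tRNA share at 4.45% to 11.9%. Counts on the 2958 genes of antisense type are given as a description, since they alone cannot show whether strand was used in counting. In the Dnm2 cohort they were 0.0788 to 0.0826% of gene counts in untreated and 0.0805 to 0.0911% in treated WT mice. In Dnm2 S619L/+ mice they were 0.0959 to 0.110% in untreated and 0.0927 to 0.111% in treated ones. Across the Bin1 cohort they ran from 0.0970 to 0.152%.

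In the Bin1 cohort no mitochondrial mRNA differed between groups beyond the test. mt-Cytb was at 26068, 29399.5, 22549 and 28019 CPM in WT, 24608, 27186, 29466 and 24571 CPM in untreated and 27948, 24888, 24936 and 33041 CPM in treated Bin1 mck-/- mice. The 3 groups overlapped (untreated Bin1 mck-/- against WT log2 difference -0.0028, SE 0.15, adjusted p by edgeR = 0.996). The 6 heavy-strand mRNAs had log2 fold changes of -0.0028 to 0.16 in untreated Bin1 mck-/- mice against WT, of -0.13 to 0.11 in treated against untreated Bin1 mck-/- mice and of -0.06 to 0.20 in treated Bin1 mck-/- mice against WT. mt-Nd6 was at 31.7 to 62.5 CPM across the cohort, with no group past the test.

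Of the 16 members tested in the Bin1 cohort, none passed in untreated Bin1 mck-/- mice against WT in edgeR, where 2.61% of all 14841 genes did, 1 had an unadjusted p under 0.05 and DESeq2 called 0. None passed in treated Bin1 mck-/- mice against WT either, where 0.849% of all genes did, with 0 at an unadjusted p under 0.05 and 0 by DESeq2. The SE of the 6 mRNAs in the first of these comparisons ran from 0.14 to 0.16. In treated against untreated Bin1 mck-/- mice 1 member, mt-Tl1, fell, where 3.13% of all genes passed and 1.61% fell. mt-Tl1 was at 8.64, 11.4, 9.30 and 7.91 CPM in untreated and 5.40, 5.46, 5.32 and 5.08 CPM in treated Bin1 mck-/- mice, with no overlap (log2 difference -0.80, SE 0.17, adjusted p by edgeR = 0.0230). This call was lost without untreated mouse 2 or treated mouse 3 or 4, with an adjusted p of up to 0.0740, and with only the groups compared or a replicate block in the fit.

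The rRNAs were uneven between mice of the Bin1 cohort. mt-Rnr1 was at 1046, 1121, 809.5 and 1991 CPM in WT, 838, 1063, 1205 and 957 CPM in untreated and 4167, 1045, 1522 and 1582 CPM in treated Bin1 mck-/- mice. mt-Rnr2 was at 1984, 2091, 1517 and 3326 CPM in WT, 1774, 2339.8, 2326 and 1668 CPM in untreated and 7015, 1845, 2497 and 2341 CPM in treated Bin1 mck-/- mice. Treated mouse 1 and WT mouse 8 stood above the rest, with rRNA at 10.6% and 5.49% of mitochondrial counts. The library of treated mouse 1 also had 30.8% of its reads given to no gene, against 22.0% to 25.4% in the other mice of the cohort. It had the fewest gene counts too (24671835), and the part of these traits in its rRNA level was not tested. Neither rRNA passed the test in a comparison of this cohort (treated against untreated Bin1 mck-/-, mt-Rnr1 log2 difference 1.03, SE 0.40, adjusted p by edgeR = 0.178). Among other genes, untreated Bin1 mck-/- mice against WT had 5 of 8 leukocyte, 3 of 5 adipocyte, 3 of 8 denervation and 1 of 4 cartilage markers higher. Lower were 1 of 12 muscle fiber, 1 of 8 slow fiber and 2 of 8 fast fiber markers. The fast fiber markers summed to 46381 to 70343.5 CPM in untreated Bin1 mck-/- and 74861 to 95062 CPM in WT mice. The slow fiber markers summed to 183 to 312 and 338 to 521 CPM. The 6 heavy-strand mRNAs overlapped between these groups, and a link to the markers was not tested.

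The nuclear genes that work with the mitochondrial genome were called in unlike numbers in the comparisons with lower mitochondrial mRNA. All 178 such genes, in 9 lists, were tested: the machinery of mitochondrial DNA replication and transcription, RNA processing and translation, the nuclear subunits of complexes I to IV and of the ATP synthase, and regulators of mitochondrial biogenesis. In untreated Dnm2 S619L/+ against WT mice 7 rose and 18 fell, and among the 83 nuclear subunits of the complexes 3 rose and 6 fell, with a median log2 fold change of 0.02. In treated against untreated WT mice none rose and 108 fell, 63 of them among the 83 subunits, with a median of -0.52. The share of genes that fell was 9.81% and 11.9% over all genes in these comparisons, so the 18 of 178 in the first lie near the background. In treated Dnm2 S619L/+ against untreated WT mice 1 rose and 56 fell, and in treated against untreated Dnm2 S619L/+ mice 1 rose and 4 fell. The genotype comparison and the tamoxifen comparison share the untreated WT mice, and their difference was not tested. Scaling moved these calls. With library sizes as counted, which shifts the median of all genes as given above, 63 of the 178 rose and 4 fell in untreated Dnm2 S619L/+ against WT mice, 8 rose and 31 fell in treated against untreated WT mice, and 33 rose and 6 fell in treated Dnm2 S619L/+ against untreated WT mice. Relative to the median of all genes the nuclear genes moved little: their median lay 0.049, 0.43 and 0.23 below it with TMM and 0.042, 0.42 and 0.23 below it without. In the interaction of genotype and tamoxifen none of the 178 passed in edgeR, 36 had an unadjusted p under 0.05 and DESeq2 called 2.

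In Dnm2 S619L/+ mice the genes of RNA processing that fell (5 of 44, with 1 higher, near the share over all genes) included Supv3l1, a mitochondrial RNA helicase, Lrpprc, which stabilises mitochondrial mRNAs, and Grsf1, a mitochondrial RNA-binding protein, with log2 fold changes of -0.58, -0.52 and -0.45 (edgeR adjusted p = 0.00323, 0.00438 and 0.00447). Of the translation list 4 of 19 fell and 3 rose. Among those that fell were Gfm2 (-0.47), the elongation factor Gfm1 (-0.43) and the release factor Mtrf1 (-0.39), with edgeR adjusted p = 0.00550, 0.0102 and 0.0123. Of the replication and transcription list 1 of 20 fell, the helicase Twnk (-0.38, edgeR adjusted p = 0.0150). Of the regulators, the coactivator Ppargc1a fell by 1.59 on the log2 scale (edgeR adjusted p = 0.0279), at 94.0 ± 72.1 CPM (SD, n = 4) in WT and 31.2 ± 6.62 in Dnm2 S619L/+ mice. The WT mice were uneven, from 50.4 to 202 CPM, and without WT mouse 4 the difference was -0.90 (edgeR adjusted p = 0.113). The call was also lost without Dnm2 S619L/+ mouse 2 or 4 and with no filter on low counts. The deacetylase Sirt3 fell by 0.27 (edgeR adjusted p = 0.0474), a call that held in 9 of 24 alternative fits. Subunit genes went both ways: Ndufs1 (-0.49) of complex I, Sdha (-0.56) of complex II, Uqcrc2 (-0.35) of complex III, Atp5a1 (-0.50) and Atp5g1 (-0.64) of the ATP synthase fell, and Ndufa2 (0.57) of complex I, Cox6a1 (0.60) of complex IV and Atpif1 (0.82), the inhibitor of the ATP synthase, rose. With library sizes as counted Twnk, Lrpprc, Grsf1, Gfm1, Gfm2, Mtrf1, Ndufs1, Uqcrc2, Atp5g1 and Sirt3 missed the threshold, and leaving out single mice cost the calls of Twnk, Mtrf1, Uqcrc2, Ndufa2 and Cox6a1 (edgeR adjusted p of up to 0.0564, 0.0607, 0.113, 0.125 and 0.113).

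In treated against untreated WT mice, calls were many among subunits: 31 of 37 genes of complex I fell, 4 of 4 of complex II, 6 of 9 of complex III, 9 of 15 of complex IV and 13 of 18 of the ATP synthase. Those with the smallest p in complexes I and IV were Ndufa8, Ndufs8 and Ndufb10 (log2 fold changes -0.60, -0.63 and -0.60) and Cox7a2, Cox7a1 and Cox7b (-0.74, -0.59 and -0.55). In complexes II and III these were Sdhb, Sdhc and Sdha (-0.66, -0.49 and -0.51) and Uqcrc1, Uqcrc2 and Uqcrh (-0.53, -0.49 and -0.53), and in the ATP synthase Usmg5, Atp5j and Atp5c1 (-0.76, -0.58 and -0.52). Of the machinery, 25 of 44 RNA processing, 13 of 19 translation and 5 of 20 replication and transcription genes fell. They included Mterf2, a transcription terminator family member (-0.73, edgeR adjusted p = 0.00102), Tfb1m, an rRNA methyltransferase (-0.64), Tefm, the transcription elongation factor (-0.53), and again Lrpprc (-0.53). Of the regulators 3 of 13 fell: Sirt3 (-0.50) and the estrogen-related receptors Esrra (-0.43) and Esrrg (-0.83). Of these, Sdha, Tefm, Lrpprc, Sirt3, Esrra and Esrrg missed the threshold with library sizes as counted, and Esrrg also without treated WT mouse 2 (edgeR adjusted p = 0.0506). The rise in bone, tendon and leukocyte markers given above stands beside these calls too, and its part in them was not tested.

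In treated against untreated Dnm2 S619L/+ mice 1 of the 178 genes rose and 4 fell, a smaller share than the 8.27% of all genes that passed. Twnk, the mitochondrial DNA helicase, rose (0.52, edgeR adjusted p = 0.00792). Coa3 (-0.38), Ndufs4 (-0.49), Ndufa12 (-0.38) and Cox7a2 (-0.43), assembly factor and subunits of complexes I and IV, fell. The Twnk call was lost with only the groups compared (edgeR adjusted p = 0.0656), while the calls of Coa3, Ndufs4, Ndufa12 and Cox7a2 held in 15, 17, 6 and 6 of 24 alternative fits. In the Bin1 cohort none of the 178 genes passed in untreated Bin1 mck-/- mice against WT in edgeR, 9 had an unadjusted p under 0.05 and DESeq2 called 1. Treated against untreated Bin1 mck-/- mice had higher Tfam, which packages mitochondrial DNA and activates its transcription (0.60, edgeR adjusted p = 0.0207), and lower Esrrg (-0.96, edgeR adjusted p = 0.00683). Of the 178 genes these were the 1 that rose and the 1 that fell, a smaller share than the 3.13% of all genes that passed. Tfam also rose in treated Bin1 mck-/- mice against WT (0.58, edgeR adjusted p = 0.0448), beside mitochondrial mRNAs that did not pass. It was the 1 call among the 178 genes there, where 0.849% of all genes passed. The Tfam calls held in 13 of 20 and 9 of 19 alternative fits, with an adjusted p by edgeR of up to 0.113 and 0.153.

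**Figure D5:**
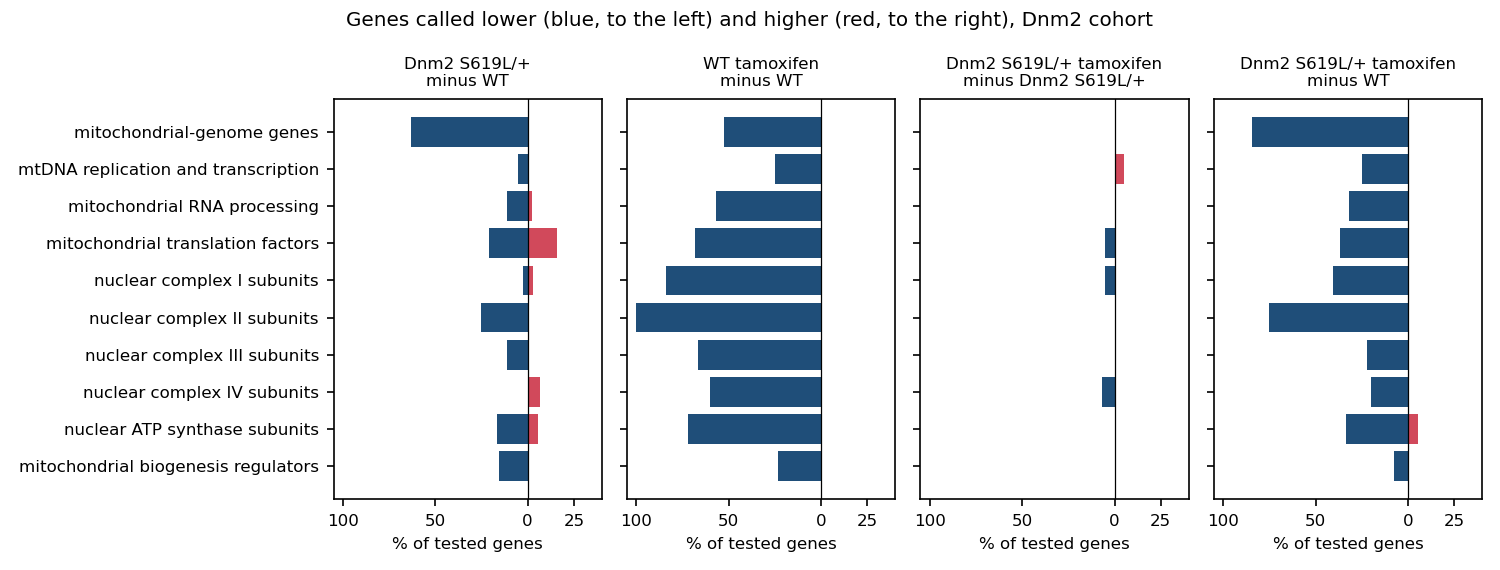
Percent of the tested genes of each list that fell (left of 0) or rose (right of 0) past an edgeR adjusted p of 0.05, for mitochondrial-genome members and 9 nuclear lists in 4 comparisons of the Dnm2 cohort. In untreated Dnm2 S619L/+ against WT mice 12 of 19 members fell beside 6 of 83 nuclear subunits, and in treated against untreated WT mice 10 of 19 beside 63 of 83.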

How the data were processed

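RNA was from the TA of 28 mice in 7 groups of 4. The deposited values are raw read counts per gene, 1 table for each cohort; the Bin1 cohort table also holds lines for reads given to no gene (22.0% to 30.8% of its totals), which were left out. The submitters' processing notes name bcl2fastq 2.20.0.422, cutadapt 1.10, Bowtie 1.2.2, STAR 2.5.3, HTSeq 0.6.1p1 and the mm39 build, without their roles; strand and multimapper settings are not given in the sources used here. No coordinates are printed, because the annotation used for names, lengths and sequences (GENCODE M21) is of another build.

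Each table was fitted over all genes with edgeR 4.0.16 (quasi-likelihood, TMM, filterByExpr, prior count 2, 1 factor of groups per cohort, Benjamini-Hochberg, threshold 0.05) in R 4.3.3. DESeq2 1.42.0, RLE scaling, scaling on nuclear genes only, library sizes as counted, no filter, the study's filter (over 10 reads in 90% or more of the mice), only the groups compared, a replicate block and leaving out each mouse were the alternatives. The edgeR p-values set a group difference against the spread between mice, which each fit estimates from all its groups and with information from other genes. On simulated counts with 200 changed genes, 87% of 4-fold and 57% of 2-fold changes were recovered for untreated Dnm2 S619L/+ against WT (15439 genes), and 80% and 53% for Bin1 mck-/- against WT (14841 genes). Unchanged genes made up 5.26% and 4.32% of the calls. The changed genes were drawn at random, equally up and down, so these rates do not describe the mitochondrial members. Nuclear copies were found by BLAST 2.17.0 of transcripts (at least 30 aligned bases, 85% identity). The members were fixed by their symbol; they and the pathway and marker lists were chosen with earlier results of these data known. By rule, all protein and rRNA genes, the 4 tRNA genes with the highest median, copies above 1 CPM, and up to 3 genes per pathway list with the smallest p were named; mt-Tq, mt-Tp, mt-Tn and mt-Te were named after their values were seen.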

Additional observations from a re-analysis of the deposited data

Results flagged for a closer look

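In 12 of 147 groups of 4 mice, 1 mouse lay apart from the other 3 by more than Dixon's 95% critical value, and chance flags about 1 in 20 groups. Mitochondrial share was 16.5% in treated Dnm2 S619L/+ mouse 2 against 14.7% to 15.0% in the others of its group, and 7.86% in Bin1 cohort WT mouse 7 against 9.44% to 9.60%. Treated Bin1 mck-/- mouse 1 had mt-Rnr2 at 7015 CPM against 1845 to 2497, Bin1 cohort WT mouse 8 had an rRNA share of mitochondrial counts of 5.49% against 2.94% to 3.24%, and treated Dnm2 S619L/+ mouse 3 had mt-Rnr1 at 735 CPM against 1230 to 1331. mt-Nd6 stood at 795 CPM in untreated Dnm2 S619L/+ mouse 1 against 152 to 195, which is 6.44 counts per 1000 heavy-strand mRNA counts against 1.16 to 1.29. mt-Nd1 was at 19793 CPM in treated Bin1 mck-/- mouse 4 against 13498 to 14395, and mt-Tm at 1.98 CPM in Bin1 cohort WT mouse 7 against 2.80 to 2.85.

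Nuclear copies of mitochondrial genes were uneven as well. Gm10925, the copy of mt-Atp6, had 726 reads in untreated WT mouse 4 of the Dnm2 cohort against 6 to 71, and Gm28437, the copy of mt-Co3, had 8559 reads in untreated Dnm2 S619L/+ mouse 1 against 0 to 4. Bone markers summed to 3355 CPM in treated Bin1 mck-/- mouse 2 against 91.6 to 497.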

How the results depend on the processing

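Across these alternatives 168 counts of called members stayed within 1.5 times the reported count and 9 did not. Of the values of single abundant members, 605 stayed on their side of the threshold, 12 lost their call, 4 gained one and no called value reversed. Direction was compared only where a value was called. Members called in treated against untreated Bin1 mck-/- mice were 0 with only the groups compared and 0 with the replicate block, in place of 1. DESeq2 called 1 member in treated against untreated Dnm2 S619L/+ mice and 3 in the interaction, in place of 0. With each mouse left out in turn, called members ranged from 8 to 13 in untreated Dnm2 S619L/+ against WT, 8 to 11 in treated against untreated WT, 15 to 16 in treated Dnm2 S619L/+ against WT, and 0 to 1 in treated against untreated Dnm2 S619L/+, in the interaction and in treated against untreated Bin1 mck-/- mice, and 0 in the other 2 comparisons. The cause of these changes was not tested. The difference in mitochondrial share kept its sign in 54 of 56 such leave-outs; the exceptions were both in treated against untreated Dnm2 S619L/+ mice (-0.083 to 1.08 points).

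Replicate numbers did not pair the mice (correlations of -0.32 to 0.33 between same-numbered mice, 10 of 28 over 0.1), and the replicate block gave 12 members in untreated Dnm2 S619L/+ against WT, 10 in treated against untreated WT, 0 in treated against untreated Dnm2 S619L/+, 16 in treated Dnm2 S619L/+ against untreated WT and 0 in the interaction. No paired analysis was possible for the comparisons with Bin1 cohort WT mice because these share no replicate number with the others. Counts over all genes moved more than those over members: with DESeq2, 1127 genes were called in place of 388 in untreated Bin1 mck-/- against WT, 1129 in place of 464 in treated against untreated Bin1 mck-/-, 519 in place of 126 in treated Bin1 mck-/- against WT and 322 in place of 40 in the interaction. With only the groups compared these were 1458, 122 and 120 in the Bin1 cohort and 30 in place of 1277 in treated against untreated Dnm2 S619L/+ mice. The replicate block gave 152 in treated against untreated Bin1 mck-/- mice, 843 in place of 1277 and 10 in place of 40. No filter gave 210 in place of 126 and 814 in place of 1277, RLE scaling and the study's filter gave 20 and 16 in place of 40, and library sizes as counted gave 5275 in place of 3382 in untreated Dnm2 S619L/+ against WT mice. Depth limits the tRNA genes and the run from mt-Ts1 to mt-Nd4l, where single mice hold few reads or none.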
